A study of Mus musculus with 12 samples.

Results

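The genes described here are 6 matrix metalloproteinases, Mmp2, Mmp7, Mmp12, Mmp13, Mmp14 and Mmp19, and the 4 tissue inhibitors of metalloproteinases, Timp1, Timp2, Timp3 and Timp4. They were chosen by name, and all 10 were found among the 25676 genes of the deposited table. Whole liver of mice on a C57BL/6 background, aged 3 to 4 months, was profiled by bulk RNA sequencing. The 12 libraries formed 4 groups of 3: wild-type males, wild-type females, knockout males and knockout females. Knockout (KO) mice had Yap1 deleted by a Cre recombinase under Foxa3 control, and wild-type (WT) mice are labelled only as healthy, with no statement of whether they carried Cre or a floxed allele. Foxa3 is active in the endoderm lineage that gives rise to hepatocytes and bile duct cells, so stellate cells, macrophages and endothelial cells are outside the lineage of that Cre. Each library has an animal number of its own, and nothing in the labels ties animals to litters or days, so the p-values measure the spread between these 12 samples.

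Matrix metalloproteinases are zinc proteases that cut collagens, elastin, laminins and other matrix proteins, and most are made as inactive precursors. Timp proteins block them by binding the active site, and Timp2 has a further role, since it bridges the membrane-bound protease Mmp14 to the precursor of Mmp2, which Mmp14 then activates. In liver these genes are known mainly from scarring and its resolution, where stellate cells, myofibroblasts and macrophages are the usual sources of many of them. Levels are given in TPM, the share of each library's transcripts, scaled to a fixed sum and corrected for gene length, so that levels of different genes can be compared. Differences are KO minus WT of log2(TPM + 1), a measure on which low genes appear to change less than their ratio of means. They were fitted with limma, sex being a covariate. All p-values marked "adjusted" are Benjamini-Hochberg values, called at 0.05, over 12278 genes unless another filter is named.

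Yap1 itself checked the labels. It stood at 23.0 to 34.9 TPM in the 6 WT libraries and at 0.994 to 3.11 TPM in the 6 KO libraries, with no overlap. The summed level of 5 hepatocyte markers, Alb among them, was 58800 to 102741 TPM. Depth, read from the spacing of low values, was about 21200064 to 30151372 reads for a library, and 14321 to 15482 genes were above 0. The typical gene was shifted towards KO in the values as deposited: the median difference over all tested genes was 0.35, and it was -0.04 after the libraries were rescaled by the median of ratios. Each member is therefore given on both scales, and "rescaled" means the latter.

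Of the 8 members with a mean of at least 0.5 TPM, 6 were higher in KO liver, both as deposited and rescaled, and 0 were lower. They were the proteases Mmp2, Mmp12, Mmp13 and Mmp14 and the inhibitors Timp1 and Timp2. Mmp19 and Timp3 did not pass the threshold in either direction, and Mmp7 and Timp4 were too low to enter the fit. Mmp12, Mmp13 and Timp1 had WT means under 0.5 TPM and entered only through KO, so their part of the count was close to fixed by the filter. These counts stand against a background in which 50.1% of all tested genes were called higher as deposited and 20.9% after rescaling, and 4.82% and 18.7% lower. The median difference of the 8 members was 1.86, or 1.44 rescaled. In the authors' deposited table, 14.9% of 17332 genes had a printed FDR p-value under 0.05 with a higher level in KO, and 9.27% with a lower one. The same 6 members were among the higher genes there, and Mmp19 was among the lower ones.

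**Figure D1:**
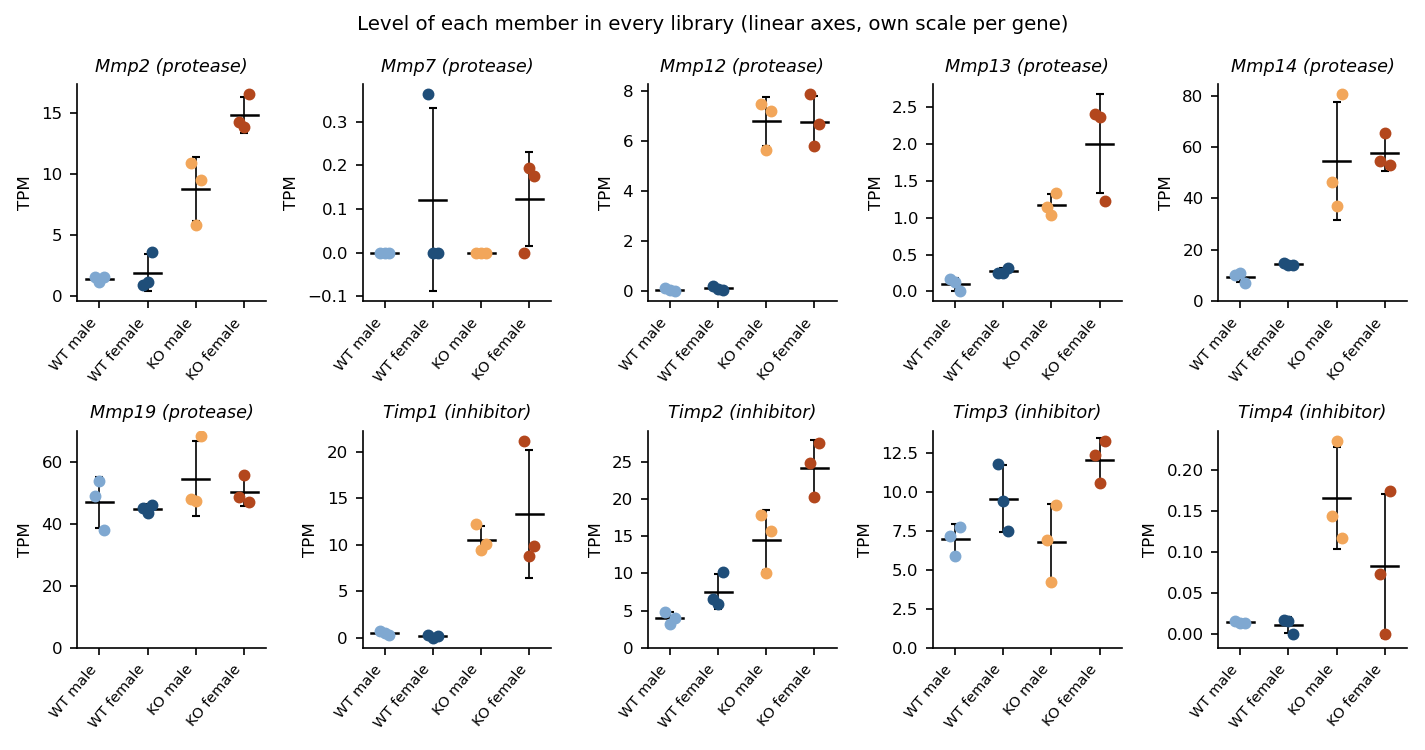
Level of each of the 10 genes in TPM, each gene on its own linear axis, in WT male, WT female, KO male and KO female liver. Points are single libraries, horizontal bars are group means and whiskers are the SD (n = 3). Mmp12 lay at 0 to 0.189 TPM in WT and at 5.65 to 7.86 TPM in KO, while Mmp19 lay at 37.9 to 53.8 TPM in WT and at 47.0 to 68.4 TPM in KO.

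Mmp14 and Mmp2, which cut collagen and gelatin, were both higher in KO liver. Mmp14 encodes a membrane-anchored collagenase and lies on chromosome 14 (GRCm38, 54431612 to 54445364, plus strand). Its level was 10.4, 11 and 7.09 TPM in the WT males and 14.9, 14.2 and 14.2 TPM in the WT females. In KO liver it was 46.4, 37.0 and 80.7 TPM in the males and 54.5, 65.6 and 52.9 TPM in the females. Every KO library was thus above every WT library, with KO male replicate 3 the highest. The mean moved from 12 ± 3.02 TPM in WT to 56.2 ± 15.3 TPM in KO (SD, n = 6 each), 4.69-fold as deposited and 3.40-fold rescaled. The log2 difference was 2.14 with an SE of 0.177 (limma, Benjamini-Hochberg adjusted p = 5.82e-07), or 1.69 rescaled.

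Mmp2 encodes gelatinase A, the secreted enzyme whose precursor Mmp14 activates, and lies on chromosome 8 (92827291 to 92853420, plus strand). It was at 1.57, 1.19 and 1.54 TPM in the WT males and at 0.914, 1.16 and 3.65 TPM in the WT females. It reached 10.9, 5.85 and 9.51 TPM in the KO males and 14.2, 13.8 and 16.5 TPM in the KO females. The groups did not overlap, although WT female replicate 3 stood well above the other 5 WT libraries. The mean was 7.05-fold higher in KO, or 5.16-fold rescaled, and the log2 difference was 2.26 (SE 0.219; limma, adjusted p = 2.32e-06), or 1.91 rescaled. Of all 12278 genes, 28.7% had every KO library above every WT library as deposited and 10.8% did so after rescaling. Among the 8 tested members Mmp2, Mmp12, Mmp13, Mmp14 and Timp1 did so on both scales. For Mmp12, Mmp13 and Timp1, which entered the fit only through KO, this was partly built in by the filter.

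Mmp12 and Mmp13 went from close to absent to measurable. Mmp12 encodes macrophage elastase, an elastin-cutting enzyme made mainly by macrophages. It was at 0.111, 0.0199 and 0 TPM in the WT males and at 0.189, 0.0691 and 0.0520 TPM in the WT females, which is 0 to 8 reads per library. In KO it was at 7.48, 5.65 and 7.20 TPM in the males and at 7.86, 5.78 and 6.66 TPM in the females, or 216 to 370 reads. The KO values were tightly grouped, and the 2 sexes covered nearly the same range. The mean was 91.9-fold higher as deposited and 68.7-fold higher rescaled, over a WT mean of 0.0737 ± 0.0688 TPM. The log2 difference was 2.85 (SE 0.11; limma, adjusted p = 5.58e-10), and with a pseudocount of 0.1 in place of 1 it was 5.39.

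Mmp13 encodes the main interstitial collagenase of rodents. It was at 0.171, 0.122 and 0 TPM in the WT males and at 0.254, 0.247 and 0.319 TPM in the WT females. In KO it was at 1.15, 1.04 and 1.33 TPM in the males and at 2.41, 2.37 and 1.23 TPM in the females. Over all 12 libraries it had the fewest reads of the called members, with 0 to 12 reads per WT library and 26 to 74 per KO library, yet no KO library fell into the WT range. The mean was 8.57-fold higher, or 6.36-fold rescaled, and the log2 difference was 1.10 (SE 0.125; limma, adjusted p = 9.34e-06), rising to 2.62 with a pseudocount of 0.1. For WT male replicate 3, where both genes were at 0, a count of 3 reads would have given 0.0562 TPM of Mmp12 and 0.0861 TPM of Mmp13.

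Mmp7 and Mmp19 showed no such difference. Mmp7, or matrilysin, is an epithelial protease known from injured bile ducts and other epithelia. It was at 0 in 9 of 12 libraries, and 3 reads would have given 0.2 to 0.322 TPM there. The other 3 were WT female replicate 1 with 0.363 TPM from 4 reads and KO female replicates 2 and 3 with 0.194 and 0.175 TPM from 2 reads each. A genotype difference in Mmp7 was thus not detectable at this depth (exact permutation test within sex, two-sided, p = 1.00, difference 0.01).

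Mmp19, a secreted protease of basement membrane proteins, was the most abundant member in WT liver. It was at 49.0, 53.8 and 37.9 TPM in the WT males and at 45.2, 43.4 and 46.1 TPM in the WT females. In KO it was at 47.9, 47.5 and 68.4 TPM in the males and at 48.5, 55.7 and 47.0 TPM in the females. The genotypes overlapped, with KO male replicate 3 apart at the top, although the 3 KO females were above the 3 WT females. In females the difference was 0.16 (limma, adjusted p = 0.508), and -0.18 rescaled. Over both sexes the log2 difference was 0.19 (95% interval -0.07 to 0.44; limma, adjusted p = 0.195). Rescaling turned its sign, to -0.27 (95% interval -0.54 to -0.00; adjusted p = 0.0989). In the authors' deposited table Mmp19 had a log2 fold change of -0.45 with an FDR p-value of 0.03, so its call there differed from the call made here. The annotation places Mmp19 on chromosome 10 (128790910 to 128800824, plus strand), where it shares 789 exonic bases with Tmem198b on the other strand. Tmem198b was at 3.63 TPM in WT and 4.51 TPM in KO, and the use of strand in counting is not given in the sources used here.

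**Figure D2:**
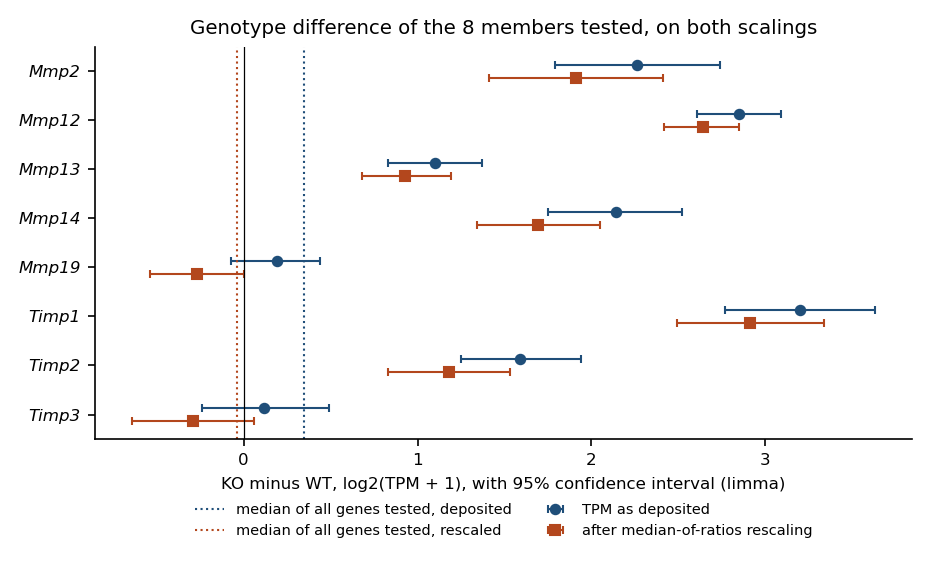
KO minus WT difference on the log2(TPM + 1) scale for the 8 tested genes, as deposited (circles) and rescaled (squares), with 95% confidence intervals from limma (n = 6 each). Dotted lines mark the median of all tested genes, 0.35 as deposited and -0.04 rescaled. The intervals of 6 genes lay above 0 on both scales, while Mmp19 and Timp3 changed sign between them.

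Among the inhibitors, Timp1 showed the largest difference and Timp3 none that passed the threshold. Timp1 is a secreted inhibitor that is low in healthy liver and known to be made in injury. It lies on the X chromosome (20870166 to 20874735, plus strand), inside an intron of Syn1 on the other strand, with which it shares 0 exonic bases. Timp1 was at 0.719, 0.550 and 0.345 TPM in the WT males and at 0.328, 0 and 0.240 TPM in the WT females. It was at 12.2, 9.41 and 10.1 TPM in the KO males and at 21.2, 8.76 and 9.91 TPM in the KO females. The groups did not overlap, and KO female replicate 1 stood above the other 5 KO libraries. The mean was 32.8-fold higher in KO, or 22.5-fold rescaled, with a log2 difference of 3.20 (SE 0.199; limma, adjusted p = 4.02e-08). For WT female replicate 2, at 0, a count of 3 reads would have given 0.319 TPM.

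Timp2, the inhibitor that also serves Mmp2 activation, lies on chromosome 11 (118301069 to 118355740, minus strand). It was at 4.80, 3.26 and 4.03 TPM in the WT males and at 6.57, 5.93 and 10.2 TPM in the WT females. In KO it was at 17.9, 10 and 15.7 TPM in the males and at 24.9, 20.3 and 27.6 TPM in the females. Within each sex all KO libraries were above all WT libraries, as 50.8% of all genes did in males and 43.5% in females, but KO male replicate 2 was just under WT female replicate 3. The mean was 3.35-fold higher, or 2.48-fold rescaled, and the log2 difference was 1.59 (SE 0.161; limma, adjusted p = 3.46e-06), or 1.18 rescaled.

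Timp3 is the matrix-bound inhibitor, which also acts on Adam proteases. It was at 7.21, 5.90 and 7.79 TPM in the WT males and at 11.8, 9.43 and 7.52 TPM in the WT females. In KO it was at 6.95, 4.23 and 9.15 TPM in the males and at 12.4, 10.6 and 13.3 TPM in the females. The genotypes overlapped widely, and in both of them the female mean was the higher one. The log2 difference was 0.12 (95% interval -0.24 to 0.49; limma, adjusted p = 0.559), and rescaling turned it to -0.29 (95% interval -0.64 to 0.06; adjusted p = 0.168). Timp3 lies inside Syn3 on the other strand and shares 1733 exonic bases with it, but Syn3 did not exceed 0.358 TPM in any library.

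Timp4, known mainly from heart and adipose tissue, was near the detection limit. It stood at 0 to 0.0165 TPM in WT, with at most 1 read per library, and at 0 to 0.236 TPM in KO, with at most 13 reads. The KO males were all above the WT males, but KO female replicate 2 was at 0. The difference was 0.15 (exact permutation test within sex, two-sided, p = 0.02), and the authors' deposited table gives an FDR p-value of 0.06. With no filter on low values, limma over 17332 genes called Timp4 higher as a seventh member (adjusted p = 0.0114), and also in males (0.0185) but not in females (0.246). Timp4 lies inside Syn2 on the other strand with 90 shared exonic bases, and Syn2 stood at 0.178 ± 0.120 TPM in WT and 0.762 ± 0.272 TPM in KO (SD, n = 6 each). Whether reads of Syn2 were counted to Timp4 was not tested.

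Set side by side, both summed levels were higher in KO liver. The 6 proteases summed to 46.5 to 66.2 TPM in WT and 97.1 to 167 TPM in KO. The 4 inhibitors summed to 9.73 to 18.7 TPM in WT and 23.9 to 58.6 TPM in KO. Neither sum overlapped between the genotypes as deposited. After rescaling the protease sums did overlap, at 55.5 to 92.4 TPM in WT and 85.2 to 129.5 TPM in KO, and the fold of the means went from 2.15 to 1.54. The rescaled inhibitor sums were 13.6 to 20.3 TPM in WT and 21 to 46.2 TPM in KO, with the fold going from 2.83 to 2.07. Protease transcripts per inhibitor transcript were 4.36 ± 1.30 in WT (3.31 to 6.80) and 3.36 ± 0.987 in KO (2.18 to 4.77; SD, n = 6 each), so the ratio overlapped.

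The makeup of both pools differed between the genotypes. Mmp19 made up 76.8% ± 4.53 of the protease sum in WT and 41.1% ± 4.20 in KO, while Mmp14 went from 19.9% ± 3.98 to 43.0% ± 3.58 (SD, n = 6 each). Timp1 moved from 2.87% ± 2.34 of the inhibitor sum in WT to 29.8% ± 7.85 in KO, and Timp3 from 57.9% ± 8.22 to 22.7% ± 4.07. Timp2 held 39.1% ± 8.88 and 47.1% ± 4.86. The ratio turned on which members entered it. Without Mmp19 alone, proteases per inhibitor were 0.979 ± 0.185 in WT (0.709 to 1.27) and 1.96 ± 0.531 in KO (1.35 to 2.81; SD, n = 6 each), with no overlap, a difference that is partly built in because a member that was not called was dropped from one side only. Without both Mmp19 and Timp3, the tested members that were not called, proteases per inhibitor were 2.37 ± 0.526 in WT (1.76 to 3.24) and 2.55 ± 0.760 in KO (1.71 to 3.81; SD, n = 6 each), with overlap. These sums are descriptions of transcript shares, and no test was made of them.

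**Figure D3:**
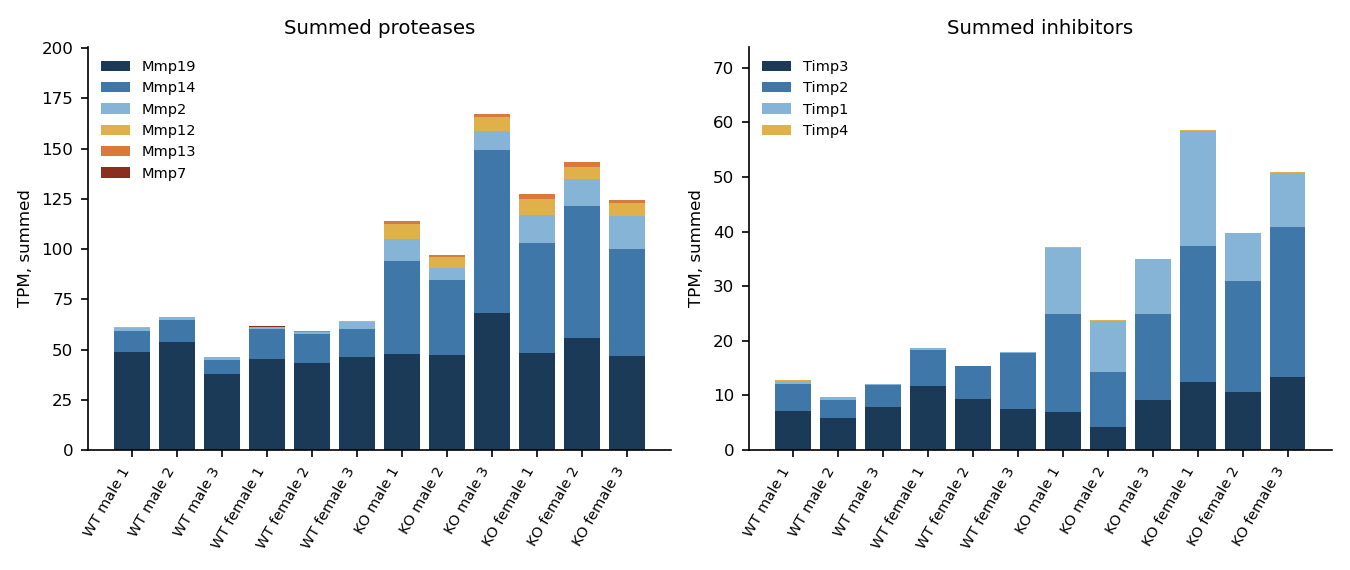
Summed level in TPM of the 6 proteases (left) and the 4 inhibitors (right) in each library, as stacked bars coloured by gene. The protease sum was 46.5 to 66.2 TPM in WT and 97.1 to 167 TPM in KO. Mmp19 fills most of each WT bar, and in KO the Mmp14 segment is about as large.

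The 3 genes of the Mmp14, Timp2 and Mmp2 activation complex were compared with each other. Mmp2 per Timp2 was 0.295 ± 0.102 in WT (0.139 to 0.383) and 0.607 ± 0.0389 in KO (0.570 to 0.681), with no overlap. Mmp14 per Timp2 was 2.23 ± 0.674 in WT and 3.13 ± 1.18 in KO (SD, n = 6 each), with overlap. The KO values of Mmp2 per Timp2 were close to constant across animals whose Mmp2 ranged from 5.85 to 16.5 TPM.

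Mmp2 and Timp2 also varied together among animals of one group. After the mean of each of the 4 groups was removed from log2(TPM + 1), Pearson's r between them was 0.88 over the 12 libraries (Spearman's rho 0.89; 0.95 without the 2 libraries farthest from the median; 0.89 rescaled). Mmp14 and Mmp19 had r = 0.95 (rho 0.99; 0.98 without the 2 farthest libraries; 0.91 rescaled). The third highest of the 28 pairs was Mmp12 with Timp1 at r = 0.78, and the median over all 28 pairs was 0.19. Within the activation complex, Mmp14 had r = 0.15 with Mmp2 (rho 0.03) and r = 0.19 with Timp2 (rho 0.04). These values are descriptions over few libraries that share depth and scaling. Among all tested genes, those most like Mmp2 by this measure were Ccdc3 (r = 0.95), Slc22a29 (0.93) and Ccn2 (0.93). Those most like Timp2 were Scarf2 (0.96), Pdgfra (0.93) and Bgn (0.93). For Mmp14 they were Tram1 (0.99), Dpagt1 (0.97) and Stxbp4 (0.97), and for Mmp19 Uso1 (0.99), Stt3b (0.99) and Zfr (0.99). For Mmp12 the closest were Mical1 (0.96), Mustn1 (0.94) and Plpp1 (0.94), for Mmp13 Gm10639 (0.93), Ttbk2 (0.93) and Ccl7 (0.90), for Timp1 Unc45b (0.97), C1qtnf6 (0.97) and Bmp4 (0.95), and for Timp3 Anks6 (0.97), Piezo1 (0.91) and Plcg2 (0.91).

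**Figure D4:**
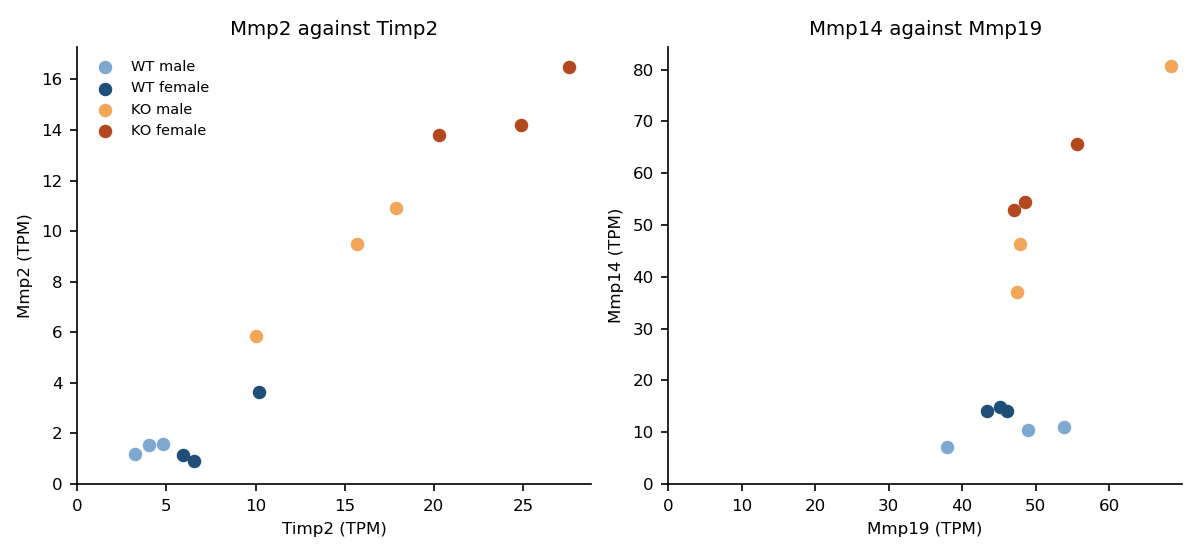
Mmp2 against Timp2 (left) and Mmp14 against Mmp19 (right), in TPM on linear axes, 1 point per library, coloured by group. Among the KO animals Mmp2 spans 5.85 to 16.5 TPM and is higher where Timp2 is higher, and KO male replicate 3 is the highest library for both Mmp14 and Mmp19.

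The same 6 members were called in each sex alone, and in neither sex was a member lower. In males 43.3% of all tested genes were called higher and 2.81% lower, and in females 29.1% and 4.68%. Mmp12 differed by 2.89 in males and 2.81 in females, Timp2 by 1.60 and 1.58, and Mmp14 by 2.35 and 1.92. Timp1 differed by 2.91 in males and 3.50 in females, and Mmp2 by 1.97 and 2.56. Every adjusted p among these 6 genes was at most 0.00087 in males and 0.000268 in females (limma, n = 3 per group). The male minus female difference of the genotype effect itself passed for 0 of 8 members by limma, against 0.912% of all genes after adjustment and 8.85% at an unadjusted p under 0.05, where the members' count was also 0. Its 95% interval was -1.40 to 0.23 for Timp1 and -1.50 to 0.32 for Mmp2.

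Males and females of the same genotype did not differ in any member after adjustment by limma. In WT, 5.74% of all genes differed between the sexes after adjustment, and among the members Timp2 (-0.75, male minus female; adjusted p = 0.0834) and Mmp14 (-0.57; adjusted p = 0.164) had an unadjusted p under 0.05, as 25.6% of all genes did. In KO, 0.0814% of all genes differed after adjustment, and 5.33% had an unadjusted p under 0.05. There Timp3 (-0.80; adjusted p = 0.744), Timp2 (-0.73; adjusted p = 0.82), Mmp2 (-0.73; adjusted p = 0.859) and Mmp13 (-0.44; adjusted p = 0.859) had an unadjusted p under 0.05, and the females had the higher mean of each. Timp2 was the member with the lower male mean at an unadjusted p under 0.05 in both genotypes.

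Mmp7, Mmp12 and Mmp13 lie in the Mmp cluster of chromosome 9, near Yap1 itself. Yap1 is annotated at 7931999 to 8004596 on the minus strand (GRCm38). Mmp7 (7692090 to 7699585) lies 232 kb from it, Mmp12 (7344381 to 7369499) 562 kb and Mmp13 (7272514 to 7283331) 649 kb, all on the plus strand. The table holds 20 genes within 1 Mb of Yap1, of which 9 were tested, and 7 of these were higher and 1 lower as deposited, or 4 higher and 2 lower after rescaling. Over all genes the shares were 50.1% and 4.82% as deposited and 20.9% and 18.7% rescaled. Of the 10 Mmp genes in this window 3 were tested, and Mmp12, Mmp13 and Mmp27 were called higher on both scales. All 3 passed the filter of 0.5 TPM only through their KO levels, so a higher call was close to fixed by the filter, and the count of 3 supports nothing. Mmp27 had a log2 difference of 0.87 (limma, adjusted p = 0.000807). Mmp1a, Mmp1b and Mmp20, between and beside them, were at 0 in every library, and Mmp3 stood at 0.0646 TPM in WT and 0.0832 TPM in KO.

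Of the tested neighbours that encode no protease, Birc3, an inhibitor of apoptosis and known target of NF-kB, differed by 0.96, or 0.55 rescaled, and was called on both scales. Tmem123, Birc2 and Dcun1d5 were called as deposited, with differences of 0.63, 0.49 and 0.31, but not after rescaling, where they were 0.18, 0.07 and -0.13. On the far side of Yap1, Cfap300 was at -0.18, or -0.34 rescaled, and Arhgap42 at -0.36, or -0.79 rescaled. The calls at this locus were thus not all in one direction. Whether the edited locus or passenger sequence beside it bears on the Mmp cluster was not tested.

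**Figure D5:**
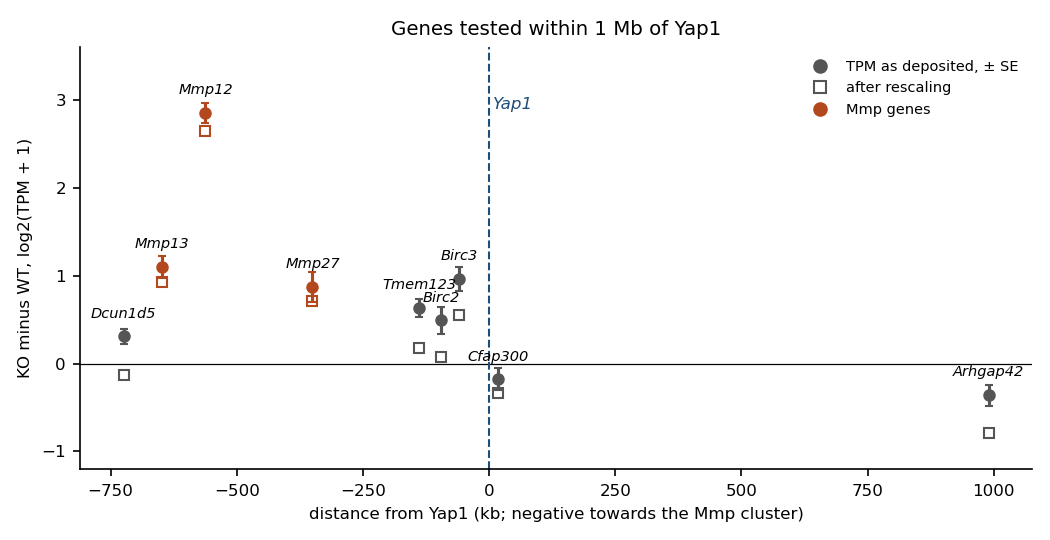
KO minus WT difference on the log2(TPM + 1) scale for the 9 tested genes within 1 Mb of Yap1, against distance from Yap1 in kb, with negative distances on the side of the Mmp cluster. Filled circles are deposited values with SE, open squares are rescaled values, and Mmp genes are in red. Mmp12 at 2.85 stands above the rest, and Tmem123, Birc2 and Dcun1d5 fall near 0 after rescaling.

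RefSeq promoter windows (GRCm38.p6), 250 bases before to 50 after each start, matched 8 of the 10 members, with no match for Mmp2 and Mmp19. They were searched on both strands for TGANTCA, the letters bound by AP-1 (Fos and Jun proteins), AACCACA (Runx factors) and GGAATG (Tead factors, the DNA-binding partners of YAP1). The 3 chromosome 9 proteases are printed because they share the AP-1 letters, in capitals, with AACCACA also in capitals. Each is the run of 150 bases that ends just before a start, on the plus strand, at chr9:7272364-7272513 for Mmp13, chr9:7347224-7347373 for the second annotated start of Mmp12, and chr9:7691940-7692089 for Mmp7.
Mmp13: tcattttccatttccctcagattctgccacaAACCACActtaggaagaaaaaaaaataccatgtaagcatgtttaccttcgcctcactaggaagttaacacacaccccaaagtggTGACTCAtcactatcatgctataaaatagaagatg
Mmp12: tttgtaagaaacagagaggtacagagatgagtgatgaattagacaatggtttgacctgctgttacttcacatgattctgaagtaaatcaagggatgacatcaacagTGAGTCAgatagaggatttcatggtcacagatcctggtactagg
Mmp7: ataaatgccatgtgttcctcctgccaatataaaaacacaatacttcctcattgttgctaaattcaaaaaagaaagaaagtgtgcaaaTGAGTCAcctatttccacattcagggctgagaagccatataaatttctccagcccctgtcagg
The AP-1 letters begin 35 bases before the start in Mmp13, 44 in Mmp12 and 63 in Mmp7. They were found in 3 of the members' 10 windows, each in another gene, and in 7.81% of 32851 RefSeq windows of the same length. AACCACA was found in Mmp13, 119 bases before the start, and in a second window of Mmp7, against 5.27% of all windows. Mmp7 holds the same AP-1 letters as Mmp12 and had 8 reads in all 12 libraries together.

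Timp1 was the only member with GGAATG, 247 bases before its start, a sequence that 14.7% of all windows hold. It is printed as the inhibitor with the largest difference, at chrX:20869916-20870165 on the plus strand, with the Tead letters in capitals.
Timp1: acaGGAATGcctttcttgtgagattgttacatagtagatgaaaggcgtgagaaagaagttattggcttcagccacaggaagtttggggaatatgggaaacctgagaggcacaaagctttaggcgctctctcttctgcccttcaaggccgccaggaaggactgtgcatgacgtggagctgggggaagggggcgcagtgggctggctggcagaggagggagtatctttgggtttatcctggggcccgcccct
Timp1 lacked TGANTCA in its window but held TGAGTAA, a variant that AP-1 proteins are known to bind in this gene and that 2.68% of windows hold. It begins 27 bases after the start, shown here in capitals within chrX:20870181-20870210.
Timp1 start region: cggtgggtggaTGAGTAAtgcgtccaggaa
A match is a run of letters and not evidence of binding, and no binding data were used.

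A list of transcription factors and cytokines known to regulate Mmp and Timp genes was read from the same livers. Of 20 listed, Tgfb1 and Il1b among them, 15 were tested, and all 15 were higher in KO as deposited and 11 after rescaling, with 0 lower, beside 50.1% and 20.9% of all genes. Of the 15, Runx1 had a WT mean under 0.5 TPM. Fos went from 18.2 ± 27.8 TPM in WT to 85.4 ± 64.1 TPM in KO (SD, n = 6 each), Jun from 72.3 ± 108 to 249 ± 156 TPM, and Fosb from 2.10 ± 4.12 to 9.65 ± 6.23 TPM. The adjusted p-values were 0.00644, 0.00636 and 0.00331 (limma). Their SDs show that animals of one genotype differed widely in these immediate early genes.

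Other proteases of the matrix were counted beside the 50.1% of all genes called higher as deposited and 20.9% rescaled. Of 17 other Mmp genes, 6 were tested, and 5 were higher and 0 lower, or 4 and 0 rescaled. Of these 5, Mmp11, Mmp24 and Mmp27 entered the fit only through their KO levels, so the count supports nothing. Mmp15, another membrane-anchored Mmp, went from 23.2 ± 8.30 to 77.7 ± 19.6 TPM (log2 difference 1.74; limma, adjusted p = 1.11e-05) and exceeded Mmp14 in mean level in both genotypes. Mmp23 went from 0.732 ± 0.331 to 5.12 ± 1.79 TPM, and Mmp24 from 0.0282 ± 0.0260 to 1.02 ± 0.509 TPM (SD, n = 6 each). Of 17 tested Adam and Adamts genes, 15 were higher and 1 lower, or 13 and 1 rescaled, and 7 of the 15 likewise had a WT mean under 0.5 TPM. Adamts2, which trims procollagen, differed by 1.53, Adamts7 by 1.44 and Adamts1 by 1.17.

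Inhibitors and clearance genes outside the Timp family had calls in both directions, depending on the scaling. Of 8 tested, 4 were higher and 0 lower as deposited, beside 50.1% of all genes, and 3 were higher and 2 lower after rescaling, beside 20.9% and 18.7%. Lrp1, Thbs1 and Thbs2 serve clearance rather than inhibition. Thrombospondins Thbs1 and Thbs2, which help clear Mmp2, differed by 2.19 and 1.26, and Mug2, a plasma protease trap of the alpha-macroglobulin family, by 1.12. Its relative Mug1 was at 1203 TPM in WT and 832 TPM in KO, a difference of -0.42 that was not called, and was called lower after rescaling at -0.88 (limma, adjusted p = 0.00667). Reck, the membrane-anchored inhibitor of Mmp14 and Mmp2, stood at 1.58 TPM in WT and 1.25 TPM in KO and was likewise called lower after rescaling only.

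The plasmin system, which activates several Mmp precursors, had 7 of 10 tested genes higher and 0 lower, or 5 and 0 rescaled, and 3 of the 7, Plat, Plaur and St14, which are also 3 of the 5, had a WT mean under 0.5 TPM. Over all genes 50.1% were higher as deposited and 20.9% rescaled. Plat, a plasminogen activator, went from 0.415 ± 0.230 to 5.90 ± 1.78 TPM, and St14, an epithelial membrane protease, from 0.353 ± 0.169 to 6.53 ± 2.57 TPM (SD, n = 6 each). Plg, the plasmin precursor, was at 1674 TPM in WT and 1832 TPM in KO and was not called.

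Most matrix substrates were higher in KO. Of 15 tested matrix genes, 14 were higher and 0 lower, or 13 and 0 rescaled, with a median difference of 1.79, or 1.39 rescaled. All 14 had a WT mean of at least 0.5 TPM, and the shares over all genes were 50.1% and 20.9%, with medians of 0.35 and -0.04. Col1a1 differed by 4.01, Nid1 by 3.79 and Spp1 by 3.76 (limma, adjusted p = 6.72e-09, 6.88e-09 and 3.73e-07). Fn1 was the tested substrate that was not called. Transcript levels alone do not give the activity of the proteases, which rests on precursor cleavage and inhibitor binding.

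Markers of macrophages and stellate cells, known sources of several of these genes, are given for the same livers. Over all genes 50.1% were higher as deposited, and 20.9% higher and 18.7% lower rescaled. Of 9 macrophage markers, 9 were higher as deposited and 8 rescaled. One of them, Gpnmb, had a WT mean under 0.5 TPM, so its higher call was close to fixed by the filter. The 9 markers summed to 49.4 to 162 TPM in WT and 233 to 462 TPM in KO, 4.11-fold on the means. Of 10 stellate cell and myofibroblast markers, 6 were higher and 0 lower, or 3 and 2 rescaled, shares near those over all genes, with sums of 80.8 to 213 TPM in WT and 159 to 421 TPM in KO, 2.25-fold on the means. Col1a1, Lum and Pdgfrb were the 3 called higher on both scales, and the quiescent stellate markers Lrat and Colec11 the 2 called lower after rescaling. No macrophage or stellate marker was at 0 in the mean of either genotype. In bulk tissue a change in the number of cells of a type and a change in RNA per cell cannot be told apart.

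Relative to these markers the members differed from each other. Mmp12 per 100 TPM of summed macrophage markers was 0.0870 ± 0.0786 in WT and 2.08 ± 0.289 in KO, and Mmp13 was 0.231 ± 0.134 and 0.480 ± 0.170, with overlap. Mmp14 was 16.5 ± 4.70 and 17.1 ± 4.02 per 100 TPM of macrophage markers. Per 100 TPM of stellate markers it was 9.52 ± 2.30 and 20.3 ± 7.86 (SD, n = 6 each), and the genotypes overlapped on both. Per 100 TPM of summed stellate markers, Timp1 was 0.342 ± 0.281 in WT and 4.15 ± 1.23 in KO, Mmp2 was 1.30 ± 0.510 and 3.96 ± 0.484, and Timp2 was 4.34 ± 0.370 and 6.50 ± 0.513. Timp3 was 6.74 ± 1.92 and 3.15 ± 0.583 on that scale, and 16.3 ± 2.15 and 17.8 ± 5.67 per 100 TPM of endothelial markers, both with overlap. The stellate values depended on the marker chosen, since Dcn (71.9 TPM in WT, 1.70-fold in KO) and Colec11 (27.5 TPM in WT, 0.986-fold) make up most of the WT sum. Per TPM of Pdgfrb, itself 4.64-fold, Timp2 was 2.21 ± 0.526 in WT and 1.58 ± 0.117 in KO, and Mmp2 was 0.629 ± 0.228 and 0.963 ± 0.106, both with overlap. Per TPM of Lum, itself 8.24-fold, Timp2 was 1.21 ± 0.0874 and 0.514 ± 0.0955, with every KO library below every WT library. Per TPM of Col1a1, itself 21.4-fold, Mmp2 was 0.576 ± 0.190 in WT and 0.193 ± 0.0548 in KO and Timp1 0.152 ± 0.109 and 0.204 ± 0.0815, both with overlap, while per TPM of Pdgfrb Timp1 was 0.157 ± 0.134 and 1.02 ± 0.332, with none. The macrophage values depended on the marker in the same way, since Clec4f, Vsig4 and Csf1r, 2.83-fold to 3.71-fold in KO, make up most of the WT sum. Per TPM of Trem2, itself 28-fold, Mmp12 was 0.120 ± 0.0740 in WT and 0.515 ± 0.161 in KO, with no overlap, and per TPM of Gpnmb, itself 31.7-fold, it was 0.571 ± 0.694 and 1.17 ± 0.225, with overlap. Mmp13 per TPM of Trem2 was 0.384 ± 0.284 and 0.129 ± 0.0931, and per TPM of Gpnmb 1.33 ± 1.16 and 0.270 ± 0.105, both with overlap. Mmp14 per TPM of Trem2 was 34.9 ± 25.0 and 4.54 ± 2.58, with every KO library below every WT library. Which cells made each transcript was not tested.

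Bile duct markers summed to 28.1 to 62.4 TPM in WT and 281 to 741 TPM in KO, mostly through Spp1, and 4 of 6 tested were higher and 1 lower on both scales. Cldn7 went from 0.248 to 11.3 TPM, Prom1 from 1.19 to 15.4 TPM and Sox9 from 3.20 to 11 TPM, while Krt19, at 1.38 TPM in WT and 1.24 TPM in KO, was not called. The WT mean of Cldn7 was under 0.5 TPM. For these and the next lists the shares over all genes were 50.1% higher and 4.82% lower as deposited, and 20.9% and 18.7% rescaled. Of 6 tested endothelial markers 1 was higher and 1 lower, or 0 and 2 rescaled, and of 5 tested lymphocyte markers 0 were called on either scale by limma. Of 5 tested neutrophil markers 3 were higher as deposited, Ngp with a WT mean under 0.5 TPM, and 0 rescaled. Of 4 mesothelial markers 3 were higher as deposited and 2 rescaled, and the latter, Wt1 and Lrrn4, entered the fit only through KO. Of 5 hepatocyte markers 1 was higher and 1 lower, or 0 and 2 rescaled, with Ttr lower on both scales. Adipocyte and pancreatic markers had 1 tested gene each, with neither called, and Prss1 was at 0 in every library. The adipocyte sum was 30 TPM in KO female replicate 3 and at most 3.83 TPM in the other 11 libraries, and Timp4 was 0.175 TPM in that library and up to 0.236 TPM elsewhere.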

How the data were processed

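The deposited table gave 1 TPM column per library, per the file headers, and each summed to 1000000 over its genes. The authors named the genome build GRCm38 and edgeR, per the submitters' processing notes, and the aligner, counter and use of strand are not given in the sources used here. The authors' own log2 fold change and FDR p-value columns, per the file headers, were read for comparison only and printed to the digits they hold. TPM are not counts, so limma 3.58.1 in R 4.3.3 was run on log2(TPM + 1) with an intensity trend, on 12278 genes with a mean of at least 0.5 TPM. The genotype fit took all 12 samples and sex as a covariate. Comparisons within sex, between the sexes and of the genotype effect between sexes came from 1 model of the 4 group means. Of 17332 genes above 0, 17088 had values in whole-read steps (within 0.05 read), which gave the estimated reads. Those reads, and limits at 3 reads, cover counting error only. Mmp7 and Timp4 had an exact permutation test within sex over 400 arrangements. On simulated data the fit recovered 82% of 100 genes changed by 1 log2 unit and 100% of 100 changed by 2, with 12 false calls among 12278 genes. The changed genes there were drawn above a set WT level that Mmp2, Mmp12, Mmp13 and Timp1 did not reach. Few genes were changed, and no shift of all genes was simulated. The simulation therefore does not give the recovery or the false calls for the real data.

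Groups came from the sample titles, and replicate numbers only follow the order of deposition. Members, lists and tests were chosen with earlier results of these data known. Named genes were all 10 members, Yap1, genes overlapping a member, counts and calls within 1 Mb of Yap1, up to 3 called genes per list with the largest difference, and the 3 genes most like each member. One gene that this rule names is not reported here. Other genes of a list that are named by value, and the tested genes around Yap1, were chosen after their values were seen. Positions came from GENCODE mouse release M21 (GRCm38) and promoters from RefSeq. Alternatives were other pseudocounts, filters, scalings, variance model and covariates, and leaving out each library. The ratio without Mmp19 and Timp3, the rescaled ranges of the sums and the single stellate and macrophage markers were added after seeing the data.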

Additional observations from a re-analysis of the deposited data

Results flagged for a closer look

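In 4 of the 20 sets of 6 values (10 genes in WT and in KO) 1 library lay apart from the other 5 by Dixon's criterion, which chance meets in about 1 set in 20. Mmp2 in WT was highest in WT female replicate 3 at 3.65 TPM, with the others at 0.914 to 1.57 TPM. Timp1 in KO was highest in KO female replicate 1 at 21.2 TPM, with the others at 8.76 to 12.2 TPM. Mmp7 in WT was highest in WT female replicate 1 at 0.363 TPM, from 4 reads, with the others at 0. Timp4 in WT was lowest in WT female replicate 3 at 0 TPM, with the others at 0.0130 to 0.0165 TPM, from 1 read each. WT female replicate 3 and KO female replicate 1 are also the 2 animals whose label numbers are below 100, and without both of them the same 6 members were called in the genotype comparison.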

How the results depend on the processing

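The 6 called members stayed past the threshold in both sexes together under every alternative in which each was tested, 21 for 5 of them and 20 for Mmp13, and with each library left out 6 members were called throughout. Their differences ranged from 1.91 to 2.82 for Mmp2, 2.64 to 5.39 for Mmp12, 0.93 to 2.62 for Mmp13, 1.69 to 2.22 for Mmp14, 2.91 to 4.88 for Timp1 and 1.18 to 1.75 for Timp2, the highest adjusted p being 0.000157. With no filter on low values 7 were called over both sexes and in males, the seventh being Timp4. Of the 17332 genes in that fit, 7217 were called in either direction over both sexes and 5606 in males. Median-of-ratios rescaling turned Mmp19 to -0.27 over both sexes, -0.36 in males and -0.18 in females, and Timp3 to -0.29. For the difference between the sexes it turned Mmp19 to -0.17 and Timp2 to -0.15, and a pseudocount of 0.1 turned Mmp13 to 0.37. Leaving out 1 library turned Timp3 in males to 0.18 (KO male 2), in a range from -0.30. For the difference between the sexes it turned Mmp12 to -0.01 (KO female 2; highest 0.19), Mmp19 to -0.12 (KO male 3) and -0.09 (WT male 3; highest 0.16), and Timp2, at most 0.25, to values from -0.19 (WT female 3) through -0.14 (KO male 1), -0.10 (KO female 2), -0.10 (WT male 2) to -0.05 (KO male 3). None of these was past the threshold, and the cause was not tested.

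Of counts over all genes, those called in males went from 5663 to 2959 on rescaling. Genes that differed between WT sexes went from 705 to 409 with an indicator for the 2 animals numbered below 100, to 465 without both (an alternative added after seeing the data), and to 291 (without WT male 2) to 1698 (without WT male 3) with 1 library left out. With 1 library left out the sex difference of the genotype effect gave 75 to 176 genes (176 without WT male 3), and KO sexes 6 to 10 (6 without KO male 2). The summed protease level went to 70.8 from 59.9 in WT and to 109 from 129 in KO on rescaling. No paired analysis was possible because the labels carry no replicate numbers shared between groups. Depth limits Mmp7 and Timp4, with 8 and 48 reads in all.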
